A study of Mus musculus with 3264 samples.

Results

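The leukemia cells of a mouse cell line mixture were compared between wells filled by image-based picking and wells filled by fluorescence-activated cell sorting (FACS). A well was kept as a leukemia well when counts of Cd7, Cacna2d2, Capn3, Aass and S1pr4 made up at least 70% of its counts over 15 marker genes, 5 for each of the 3 lines in the mixture, whatever cell type its label named. This left 38.4% of the picked and sorted wells of the mixture. On the 4 picked plates 30 of 78, 34 of 87, 30 of 71 and 34 of 83 wells were kept (40.1% together), and on the 2 sorted plates 31 of 87 and 32 of 92 wells (35.2%). The cell line table holds 1836 wells in all.

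The study isolated single cells from a mixture of 3 murine lines, of leukemia, T cell and hematopoietic progenitor (HPC) type, and counted RNA per gene in each well. In the target arm, the ALPS instrument isolated cells chosen by type onto 4 plates. In the FACS arm, cells were sorted onto 2 plates, and in a further random arm ALPS took cells without choosing a type onto 4 plates. All 3 arms drew on live cells of the same kind of mixture, with no drug, genotype or time course separating them. The labels give the strain as not applicable and name neither the lines, nor a clone, nor the culture from which each plate was filled. Each arm is therefore 1 sample. Wells are cells and plates are technical batches, so spreads are given as ranges over plates and no p-value was computed. Target and FACS wells never shared a plate, and isolation method and plate cannot be told apart.

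Isolation exposes a cell to handling before its RNA is fixed by lysis: a sorter carries cells through a fluid stream, whereas a picker draws up an imaged cell. Rgs2 encodes a regulator of G protein signalling that speeds GTP hydrolysis by G alpha subunits, and its transcript is known to be induced quickly by cAMP and calcium signals. Klf6 and the Fos, Jun and Egr genes are immediate early genes, transcribed within minutes of a stimulus from pre-existing factors. Dusp6, a phosphatase that removes phosphate from ERK, and the Sprouty proteins are made in response to ERK activity and dampen it.

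The labels and the markers disagreed in the FACS arm. Of the 63 FACS wells kept, 23 were labelled leukemia (of 66 so labelled), 24 T cell (of 68) and 16 progenitor (of 45). In the target arm, the leukemia-labelled wells were kept without exception (30, 34, 30 and 32 on plates 1 to 4), with 2 of 73 progenitor-labelled wells, both on plate 4, and 0 of 120 T cell-labelled wells. Results below use the marker rule. Values from leukemia-labelled wells alone, given beside the leading genes, come from wells kept by the rule that also carry that label. In the FACS arm these are 23 of the 63 kept, and in the target arm the label drops only the 2 progenitor-labelled wells. FACS wells of each label were kept at similar shares (34.8 to 35.6%), so the label did not separate the lines there. These values thus describe a subset of the same wells and are no independent check. The cut itself fell in a sparse range. The lowest target well kept had 76% of its marker counts in the leukemia set and the highest left out had 8%, against 88% and 10% in FACS wells. In the random arm, whose wells carry no cell type label, 99 of 330 wells were kept.

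Total counts per well had a median of 31868 in target wells (11627 to 80389) and 26179 in FACS wells (17243 to 44087). After each well was thinned to 17000 counts, the median number of detected genes was 4095.5 in target wells, of which 4 were too shallow and left out, and 4178 in the 63 FACS wells. The label of leukemia cell was checked against genes that the rule did not use. Hmgn1, Cmah, Cd160, Cd3e and Cd3g summed to between 1821 and 1977 counts per 1000000 (CPM) on target plates and to 1927 and 1928 on FACS plates. Hmgn1 does not set them apart from progenitor wells, where it was at 450.3 and 383.8 CPM in the target and FACS arms, and Cd3e was also present in T line wells, at 196.03 and 216.7 CPM. The rule itself bounds its T and progenitor markers, which summed to at most 13.2 and 16.3 CPM on any plate. Among 9 other T line genes, the sum was 327.4 to 369.8 CPM on target and 285.8 to 406.6 CPM on FACS plates, nearly all of it from Anxa2 and Lat, and Thy1 reached at most 1.23 CPM. Among 10 other progenitor genes, the sum was 4.41 to 38.03 CPM on target and 4.91 to 8.21 CPM on FACS plates, mostly from Ccr2, and Sox4, Flt3, Hoxa9, Kit and Mpo were at 0. The 3 mast cell genes, led by Cpa3, summed to 60.01 to 118.3 CPM on target and 95.8 to 156.6 CPM on FACS plates. Their part in the results was not tested. B cell genes reached at most 1.69 CPM and fibroblast genes were at 0. Of the monocyte list, Lyz2, Csf1r, Cd14, S100a8, S100a9 and Ly6c2 were at 0 and Fcgr3 alone had counts, at 64.8 to 132.4 CPM on target and 41.8 to 119.4 CPM on FACS plates.

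For each gene, counts were summed over the leukemia wells of a plate and scaled to CPM, and the difference is the mean log2(CPM + 1) of the target plates minus that of the FACS plates, with the range over the 8 pairs of plates. A gene was called when this difference was at least 2-fold and every target plate lay on the same side of both FACS plates. Of 7664 genes with at least 10 CPM in either arm, 61 were called higher in target wells (0.796%) and 61 lower (0.796%). Among the higher genes, Gm22109, Gm22291, Gm23284, Gm25018, Gm25212 and Gm26391 held identical values (35.6 CPM in target and 2.56 CPM in FACS wells). The same signal may thus be counted more than once. Without the size requirement, 8.69% of genes lay above both FACS plates on every target plate and 15.9% below. The median difference over all tested genes was -0.08 with an SD of 0.39. Of the 61 higher genes, 5 reached 50 CPM, and of the 61 lower genes 8 did, so most calls rested on scarce transcripts. The counts moved with the scaling. With Rn45s and Rn4.5s left out of the totals 95 genes were higher and 43 lower, and with median-of-ratios scaling 81 and 43. Without FACS plate 1, 1.37% of genes were higher and 2.29% lower, and without FACS plate 2, 2.47% and 2.76%. With 1 FACS plate left the rule is easier to meet, so this rise does not measure an effect of the plates. In the plot of difference against level, Rgs2, Klf6, Malat1 and Rn4.5s stand apart among the higher genes of at least 50 CPM and Lrrc17 among the lower, while scarcer genes such as Rnu11 (3.77) and Cox6a2 (-1.83) differed by more.

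**Figure D1:**
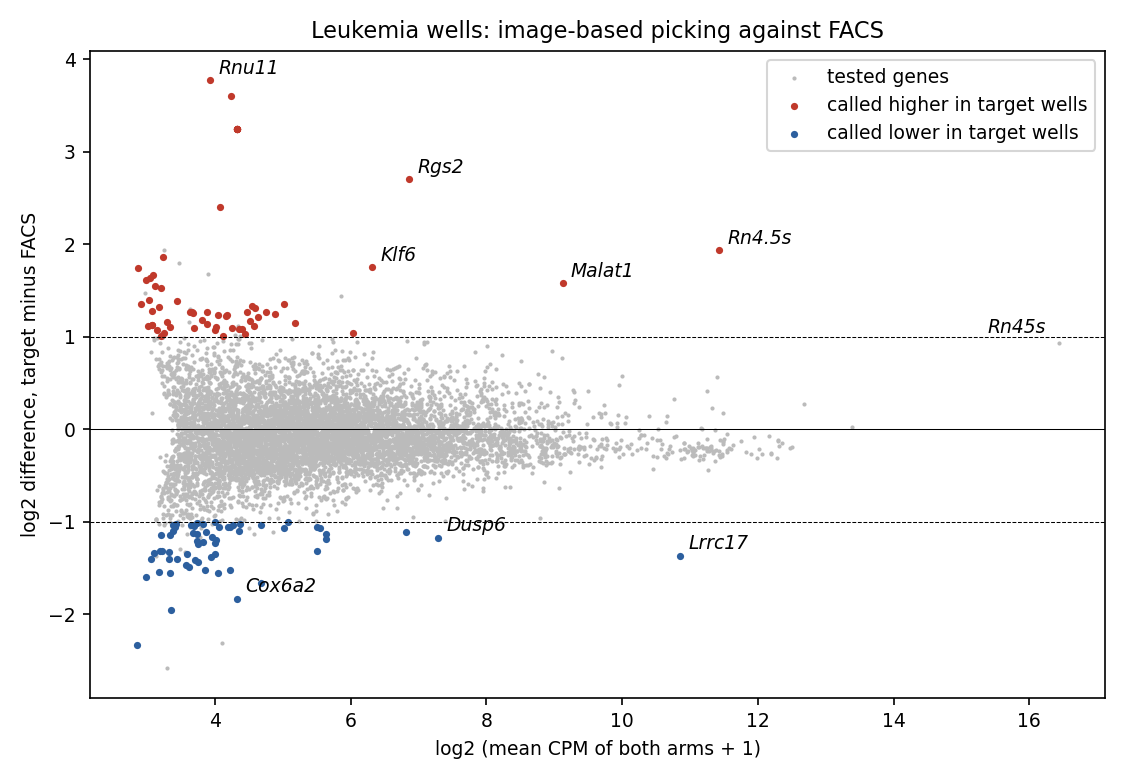
Each point is 1 tested gene in leukemia wells, with its mean level over both arms on the x axis (log2 of CPM + 1) and its target minus FACS difference on the y axis (log2). Called genes are coloured, and dashed lines mark 2-fold. Rgs2 lies at 2.70 and Lrrc17 at -1.37, while the median of all genes is -0.08.

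Promoters of 4 coding genes are shown, chosen after their values were seen, so that the sequence before the start of the genes described at most length can be read beside their levels. Each runs from 250 bases before to 50 bases after the RefSeq start site (GRCm38.p6), written 5′ to 3′ on the gene's strand. Capitals mark the letters TGACG or, on the other strand, CGTCA, which form the core of the cAMP response element. Rgs2 lies at chr1:144004100-144004399 (minus strand), Klf6 at chr13:5861239-5861538, Lrrc17 at chr5:21543277-21543576 and Dusp6 at chr10:99262981-99263280 (plus strand).
Rgs2: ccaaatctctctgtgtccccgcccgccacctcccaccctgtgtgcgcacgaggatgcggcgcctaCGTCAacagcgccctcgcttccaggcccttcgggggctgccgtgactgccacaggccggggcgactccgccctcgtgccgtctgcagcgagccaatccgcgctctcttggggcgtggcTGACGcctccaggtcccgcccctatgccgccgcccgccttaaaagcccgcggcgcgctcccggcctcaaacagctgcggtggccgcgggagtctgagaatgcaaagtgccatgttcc
Klf6: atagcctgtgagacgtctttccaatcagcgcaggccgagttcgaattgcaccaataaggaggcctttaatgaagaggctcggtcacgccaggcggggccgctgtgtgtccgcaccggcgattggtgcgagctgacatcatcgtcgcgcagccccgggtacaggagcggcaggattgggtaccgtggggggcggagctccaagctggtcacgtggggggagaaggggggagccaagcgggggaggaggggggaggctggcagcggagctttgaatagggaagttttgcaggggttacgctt
Lrrc17: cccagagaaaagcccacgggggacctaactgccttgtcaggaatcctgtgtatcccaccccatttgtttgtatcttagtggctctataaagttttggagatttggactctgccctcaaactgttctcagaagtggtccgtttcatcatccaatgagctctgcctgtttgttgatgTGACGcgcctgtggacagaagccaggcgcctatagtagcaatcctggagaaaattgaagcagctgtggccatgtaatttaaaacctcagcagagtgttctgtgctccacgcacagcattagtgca
Dusp6: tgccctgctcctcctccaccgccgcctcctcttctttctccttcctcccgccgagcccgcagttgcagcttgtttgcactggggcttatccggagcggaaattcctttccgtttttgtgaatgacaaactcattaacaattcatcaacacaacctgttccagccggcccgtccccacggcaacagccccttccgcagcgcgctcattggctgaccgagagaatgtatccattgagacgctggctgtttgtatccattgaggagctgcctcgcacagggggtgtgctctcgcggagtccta

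The search covered both strands, with positions counted from the start site. Rgs2 held the core at -67 to -63 and, on the other strand, at -185 to -181. Lrrc17 held it at -75 to -71, and the Klf6 and Dusp6 windows had no match. The core is common: 20.8% of 32851 promoters of this length hold it, and 34.9% of the 7743 promoters of tested genes. The full palindrome TGACGTCA (1.79% of all promoters) and the AP-1 motif TGAGTCA (5.202%) had no match in the 4 windows. The letters CCAAT, present in 37.4% of promoters, occurred in each of the 4, at -94 to -90 in Rgs2. These matches describe the sequence alone.

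Rgs2 (chr1:143999338-144004161, minus strand, mm10) had the largest difference among called genes of at least 50 CPM. Its level was 241.08, 238.04, 168.38 and 157.97 CPM on target plates 1 to 4 and 30.7 and 28.5 CPM on the FACS plates. The 4 target plates thus stood well above both FACS plates, with plates 1 and 2 higher than plates 3 and 4. The log2 difference was 2.70 (pair range 2.33 to 3.04). Counts over all wells were 876.75 against 51, and the pooled CPM ratio was 6.84 (exact Poisson interval 5.16 to 9.27, counting error only). In the leukemia-labelled subset of the same wells the difference was 2.81.

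The Rgs2 difference held in the share of wells as well as in the sum. At 17000 counts per well, 78.2% of target wells had an Rgs2 count (exact binomial interval 69.9 to 85.1%) against 33.3% of FACS wells (21.95 to 46.3%). Without thinning the shares were 85.2% and 44.4%. By plate, the thinned share was 86.7, 75.8, 86.2 and 65.6% on target and 41.9 and 25% on FACS plates, so the lowest target plate still lay above the higher FACS plate. T line wells, in which Rgs2 was scarce, had shares of 19.2% in the target and 9.68% in the FACS arm. The median well held 178.5 CPM of Rgs2 in the target arm and 0 in the FACS arm. By well number, target wells 1 to 12, 13 to 24 and 25 to 36 gave 202.25, 213.3 and 202.31 CPM, a smaller spread than that between plates.

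**Figure D2:**
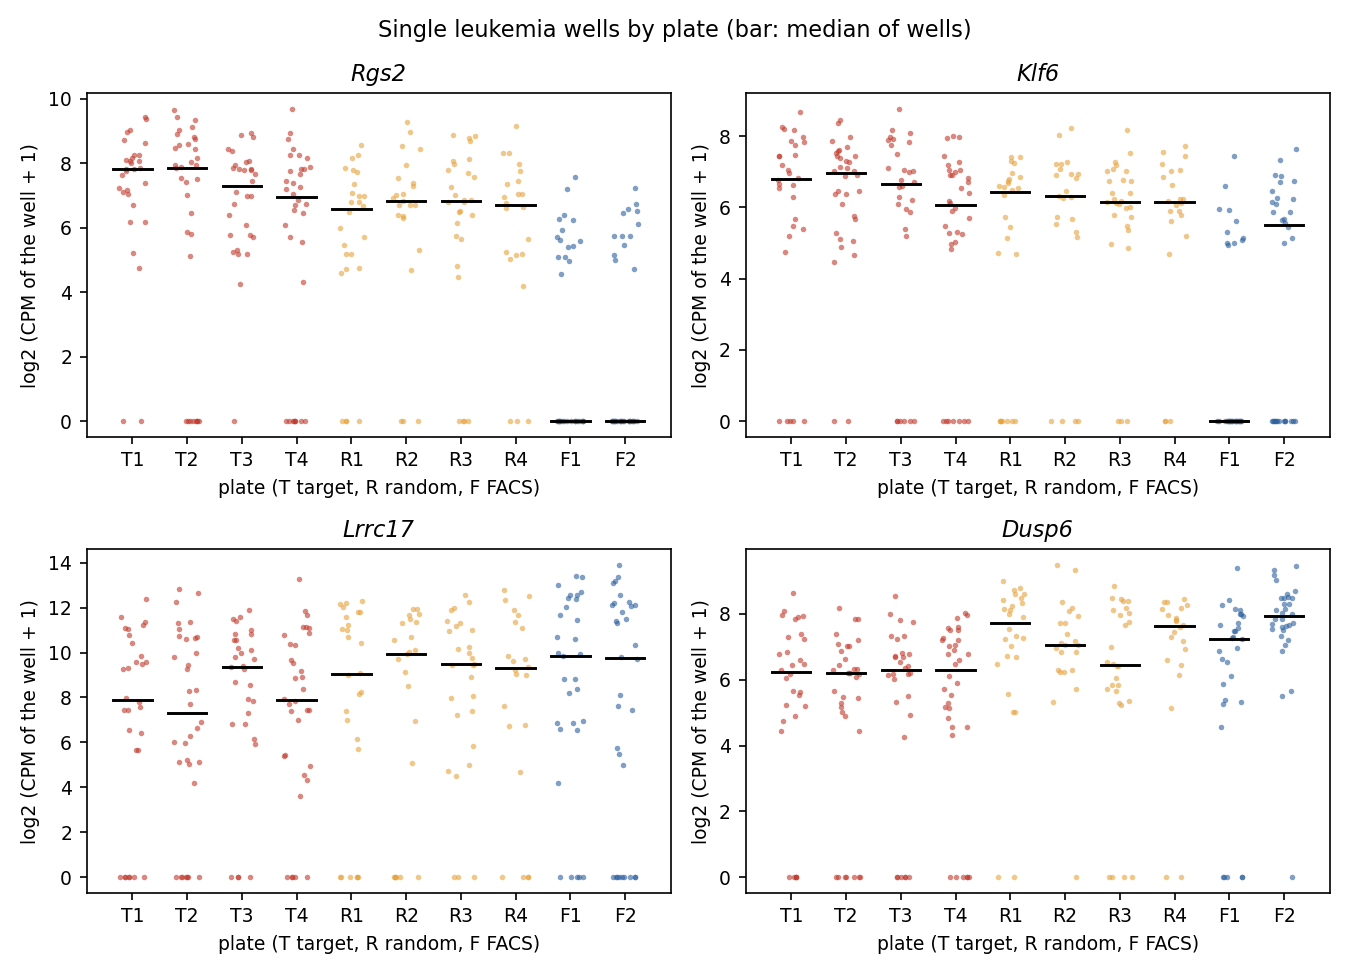
Each point is 1 leukemia well, grouped by plate (T target, R random, F FACS), with log2 of CPM + 1 on the y axis and a bar at the plate's median, for Rgs2, Klf6, Lrrc17 and Dusp6. The median Rgs2 level was 178.5 CPM in target wells, 110.05 in random wells and 0 in FACS wells, and single wells spread widely within every arm.

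Rgs2 belonged to a list of 25 Dusp, Rgs and Sprouty feedback regulators, of which 15 were tested. 1 was called higher (Rgs2) and 1 lower (Dusp6), beside 0.796% of all genes in each direction. The list median was -0.07, close to the -0.08 of all genes. Dusp6 (chr10:99263231-99267489) measured 107.3, 79.3, 90.004 and 91.8 CPM on target and 152.3 and 283.1 CPM on FACS plates. Every target plate was below both FACS plates, but the FACS plates also stood well apart from one another. The Dusp6 difference was -1.17 (-1.82 to -0.50). It was -0.73, short of 2-fold, without FACS plate 2, and -1.62 without FACS plate 1. At equal depth 70.2% of target wells (61.3 to 78.04%) and 87.3% of FACS wells (76.5 to 94.4%) had a Dusp6 count. Leukemia-labelled wells gave -1.15.

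Spry4, an inhibitor of receptor tyrosine kinase signalling to ERK, was lower on every target plate without reaching 2-fold, at 36.3, 31.9, 28.3 and 28.2 CPM against 47.9 and 64.6 CPM (difference -0.82). Dusp1, a phosphatase of p38 and JNK, lay on the other side, at 21.97, 24.2, 21.2 and 11.47 CPM against 9.82 and 9.86 CPM (difference 0.88). The feedback regulators therefore did not move as a block. Over 18 ERK output genes, 8 were tested, with 0 called higher and Dusp6 alone called lower (0.796% of all genes in each direction). The median of 0.08 turned to -0.26 without FACS plate 1 and to -0.25 in leukemia-labelled wells.

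Of 20 cAMP and CREB response genes, 11 were tested. Rgs2 and Pde4b were called higher and 0 lower (0.796% of all genes in each direction), and the median was 0.33. On every target plate 4 of the 11 lay above both FACS plates (8.69% of all genes) and 0 below (15.9%). Pde4b (chr4:102087543-102607259) encodes a phosphodiesterase that degrades cAMP. It measured 24.5, 29.997, 24.3 and 26.9 CPM on target and 15.96 and 8.76 CPM on FACS plates, a difference of 1.09 that dropped to 0.69 without FACS plate 2 and was 2.002 in leukemia-labelled wells. In random wells it differed from FACS by 0.14. Pde4d, of the same enzyme family, gave 0.86 and Dusp1 0.88, each above both FACS plates on every target plate. Of 18 NF-kB response genes, 7 were tested, and Nfkb2 was the 1 called, lower by -1.05 (-0.67 without FACS plate 1 and -0.81 without target plate 3).

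Klf6 (chr13:5861482-5870394), a zinc finger transcription factor, was the 1 member called among 16 tested immediate early and AP-1 genes of a list of 28. Of all genes, 0.796% were called in each direction. Klf6 measured 141.99, 124.8, 127.4 and 84.7 CPM on target and 22.1 and 52.6 CPM on FACS plates. All target plates were higher than both FACS plates, and the fold between the FACS plates was larger than that between any pair of target plates. The difference was 1.75 (0.68 to 2.63), or 1.15 without FACS plate 1 and 2.36 without FACS plate 2. Leukemia-labelled wells gave 1.92. A Klf6 count was seen in 76.6% of target wells (68.2 to 83.7%) and 34.9% of FACS wells (23.3 to 47.97%) at 17000 counts.

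No other immediate early gene was called. The list median was -0.22, with 6 of the 16 tested members above the median of all genes. On every target plate 3 of the 16 lay below both FACS plates, a share near the 15.9% of all genes. Ier2 measured 103.1, 81.3, 49.6 and 63.1 CPM on target and 126.5 and 133.6 CPM on FACS plates (difference -0.85). Junb (chr8:84974484-84978718), an AP-1 subunit, measured 38.03, 28.1, 27.3 and 23.8 CPM against 58.9 and 58.04 CPM (-0.99), just under 2-fold. Egr1 was -0.52. Fos had 11 counts in all target and 8 in all FACS wells, and Jun had 0 in both arms, so neither could be compared at this depth.

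Lrrc17 (chr5:21543559-21575904), which encodes a secreted leucine-rich repeat protein, was the most abundant gene called lower. It measured 992.8, 1101.3, 984.5 and 1068.03 CPM on target plates and 2589 and 2761 CPM on FACS plates. Neither arm's plates came near the other's, and plates within an arm differed little. The difference was -1.37 (-1.49 to -1.23), the pooled CPM ratio was 0.39 (exact interval 0.37 to 0.40, counting error only), and leukemia-labelled wells gave -1.44. A count was present in 76.6% (68.2 to 83.7%) of target and 76.2% (63.8 to 86.02%) of FACS wells at equal depth. The amount per well differed: the median was 315.5 CPM in target and 888.8 CPM in FACS wells, and the highest well held 9943 and 15182 CPM.

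Both picked arms can be set beside the same FACS wells, which the 2 comparisons share. Random plates held 118.9, 155.1, 151.9 and 125.5 CPM of Rgs2, a difference from FACS of 2.17 (1.92 to 2.40), and 76.8% of random wells had a count at equal depth. Klf6 in random wells differed from FACS by 1.30 and Lrrc17 by -0.81 (-1.02 to -0.55). Random plates held 1590, 1415.1, 1356.5 and 1765 CPM of Lrrc17, between the target and the FACS plates. Against target wells directly, random wells had lower Rgs2 by -0.53 (-1.01 to -0.03) and higher Lrrc17 by 0.56 (0.30 to 0.84), both with no overlap of plates and under 2-fold. Dusp6 in random wells overlapped the FACS range, at 217.1, 176.2, 132.8 and 194.5 CPM (-0.23, -1.09 to 0.51). Over all genes, random against FACS gave 50 of 7697 called higher (0.65%) and 33 lower (0.429%), while random against target gave 12 of 7580 (0.158%) and 2 (0.0264%).

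**Figure D3:**
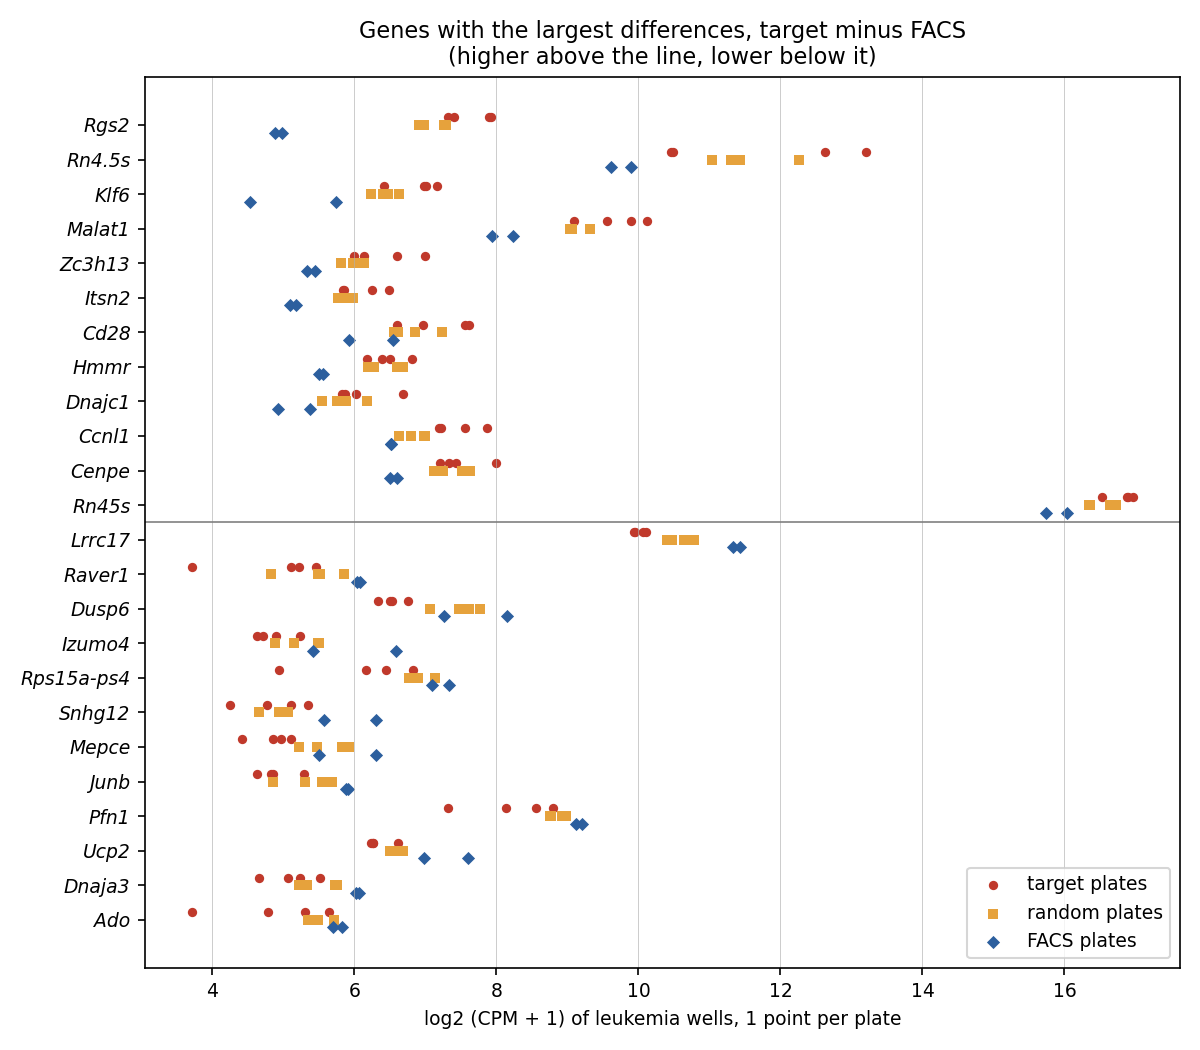
Each point is 1 plate, with log2 of CPM + 1 over its pooled leukemia wells on the x axis, for the 12 genes with the largest difference in each direction, coloured by arm. Target and FACS points of Rgs2 and of Lrrc17 form separate groups, with the random plates of Lrrc17 between them.

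The same plates carried the other lines, in wells chosen by the same kind of rule. In progenitor wells Rgs2 was 292.04 CPM in the target and 49.8 CPM in the FACS arm (difference 2.49, 1.97 to 3.07), and Klf6 was 316.03 and 55.2 CPM (2.48, 1.999 to 2.91). Lrrc17 was far scarcer there, at 40.6 and 184.6 CPM (-2.16, -3.51 to -1.16). In T line wells Rgs2 was low, at 17.5 and 6.19 CPM (1.19, 0.02 to 3.02), while Lrrc17 was at 3831 and 6686 CPM (-0.78, -1.82 to -0.01). Dusp6 differed by -0.68 in T wells, where the plates overlapped (-2.01 to 0.58), and by -1.14 in progenitor wells (-1.98 to -0.19). The differences between lines were not tested. In those lines 1.31% (T) and 2.18% (progenitor) of genes were called higher and 0.783% and 3.63% lower.

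Among RNAs that act in the nucleus or as structural parts of RNA machines, 12 were tested. Malat1, Rn4.5s and Rnu11 were called higher and 0 lower (0.796% of all genes in each direction). The median of the 12 was 0.70. Malat1 (chr19:5795690-5802672, minus strand), a long noncoding RNA of nuclear speckles, measured 543.01, 750, 1113.2 and 954.4 CPM on target and 243.8 and 301.2 CPM on FACS plates. The lowest target plate was above the higher FACS plate, and the difference was 1.58 (0.85 to 2.19), with 1.63 in leukemia-labelled wells. Malat1 differed by 1.03 in random leukemia wells, by 1.28 in T and by 1.07 in progenitor wells. Rnu11, the U11 small nuclear RNA of the minor spliceosome (chr4:132270080-132270213, minus strand), measured 33.8, 47.4, 17.2 and 10.6 CPM on target and 0 and 2.19 CPM on FACS plates. The FACS arm held 2 counts of it in all, and the pooled ratio of 23.5 had a wide counting interval of 6.36 to 196.2.

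Rn4.5s varied more between target plates than between arms. It measured 6300 and 9477 CPM on target plates 1 and 2, 1434.2 and 1403.4 CPM on plates 3 and 4, and 952.3 and 783.9 CPM on the FACS plates, so the difference of 1.94 was 3.16 over the first pair of target plates and 0.71 over the other. Rn45s, the precursor of ribosomal RNA, was 94877, 121489, 127617 and 120111 CPM on target and 67084 and 54833 CPM on FACS plates. This difference of 0.93 fell short of 2-fold, yet its share of a well's counts had a median of 11.4% in the target arm, 5.95% in the FACS arm and 9.21% in the random arm. Every CPM value is therefore measured beside a differing ribosomal fraction.

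Host genes of small nucleolar RNAs, whose introns release guides for ribosomal RNA modification, had the lowest median of the 31 lists. Of 13 tested, 0 were called higher and Snhg20 and Snhg12 were called lower (0.796% of all genes were called lower). On every target plate 6 of the 13 lay below both FACS plates (15.9% of all genes), and the median was -0.63. Snhg12 (chr4:132308623-132311024) measured 33.4, 39.7, 26.3 and 18.1 CPM against 77.98 and 46.5 CPM, a difference of -1.07 that was -0.70 without FACS plate 1 and -0.86 without target plate 4. Snhg20 was -1.66, and the more abundant Gas5 was -0.30. Replication-dependent histones had 17 tested members and a median of 0.58. Their 2 calls, Hist2h2aa1 and Hist2h2aa2 (each 1.13, or 0.91 without FACS plate 2), held identical values and are near-identical copies that the counting may have split. The summed histone level was 2349, 1957, 836.8 and 1215.2 CPM on target and 1877 and 1406.96 CPM on FACS plates, so the groups overlapped, and the median was -0.34 over target plates 3 and 4 and -0.19 among members of at least 50 CPM.

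Small shifts covered many genes of the translation machinery. Of 83 tested cytosolic ribosomal protein genes, 0 were called in either direction, but 71 lay below both FACS plates on every target plate, against 15.9% of all genes, and 0 lay above. Their summed level was 207664, 201330, 187173 and 189706 CPM on target and 229458 and 226233 CPM on FACS plates. The median difference was -0.21, and 76 of 83 lay below FACS on every random plate (11.1% of all genes, with 8.64% above). The size depended on the scaling: without Rn45s and Rn4.5s in the totals the median was -0.12 and 46 of 83 lay below (9.18% of all genes). The median in T wells was -0.27 and in progenitor wells -0.45.

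The respiratory chain and ATP synthase list had 77 tested genes, a median of -0.23, and 46 members below both FACS plates on every target plate, against 15.9% of all genes. Cox6a2, a subunit of cytochrome c oxidase (chr7:128205435-128206387, minus strand), was its 1 call (0.796% of all genes were called lower). Cox6a2 was lower by -1.83, or by -1.19 without FACS plate 1. Of 42 DNA replication genes tested, 21 lay below both FACS plates (15.9% of all genes) and 0 above (8.69%), with a median of -0.27. The shift was not seen in the other lines. In T wells the replication median was -0.02, with 0 of 42 below and 0 above, and in progenitor wells 0.11, with 2 below and 3 above. Dscc1, a subunit of a clamp loader, was the 1 called in leukemia wells (0.796% of all genes were called lower). It was at -1.02, or -0.94 without target plate 2 and -0.99 without FACS plate 1. Of 50 G2 and mitosis genes tested, 0 were called, 10 lay above both FACS plates (8.69% of all genes) and 1 below (15.9%), with a median of 0.14. The highest were Hmmr at 0.95 and Cenpe at 0.94.

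**Figure D4:**
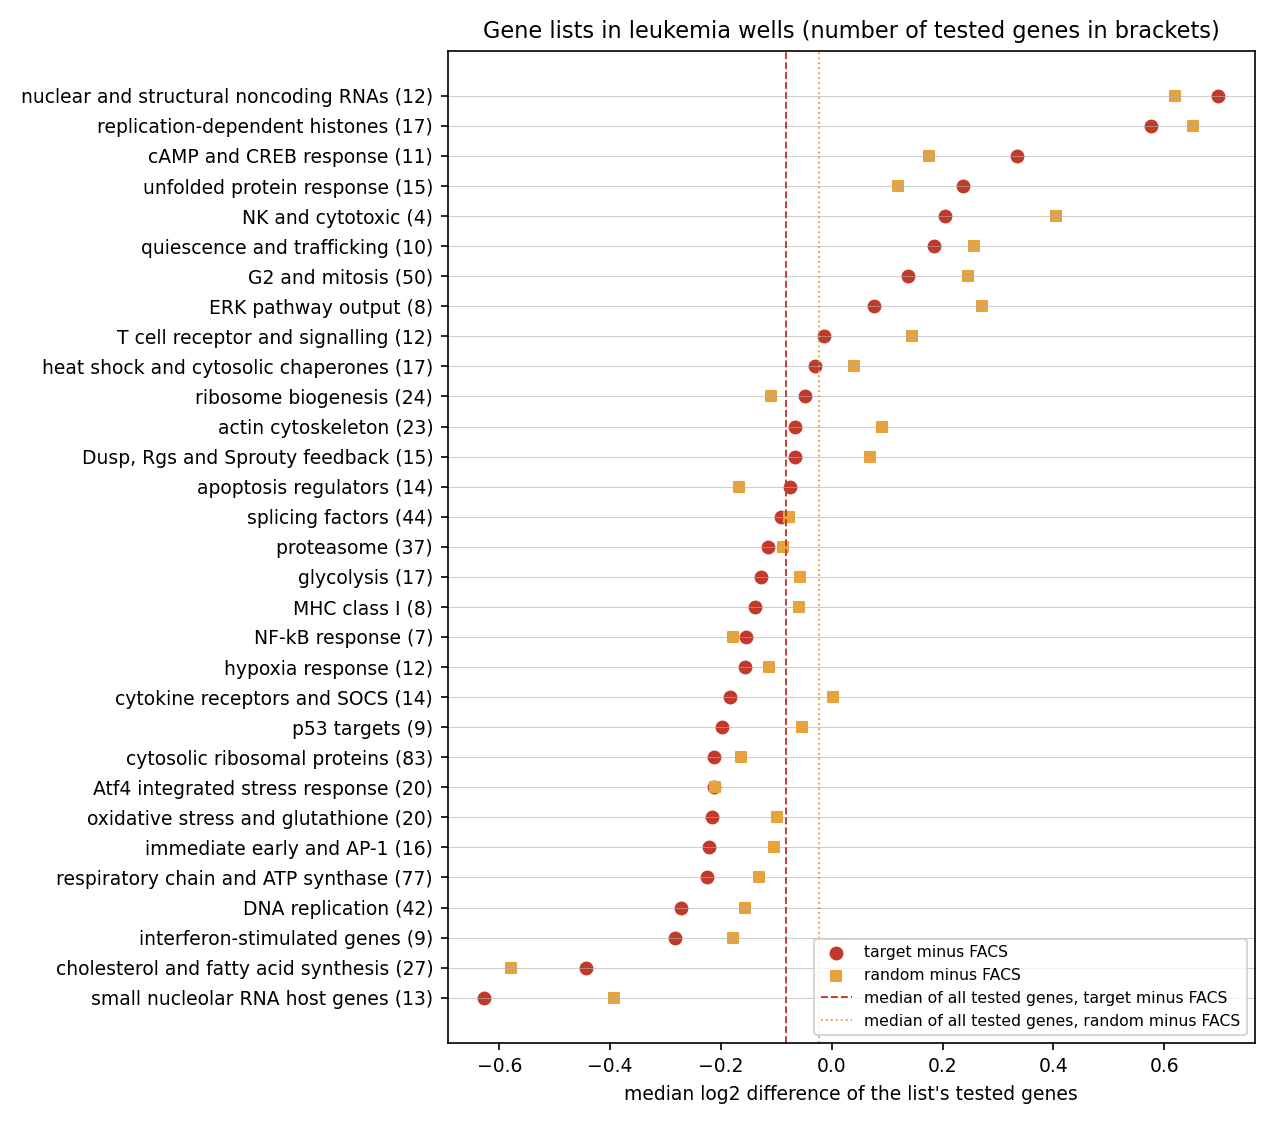
Each row is 1 of 31 gene lists, with the median target minus FACS difference of its tested members on the x axis (log2, red circles), the random minus FACS median beside it (orange squares), and vertical lines at the medians of all tested genes. Nuclear noncoding RNAs (0.70) lie farthest right and small nucleolar RNA host genes (-0.63) farthest left.

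Some lists separated the 2 FACS plates rather than the arms. Cholesterol and fatty acid synthesis genes summed to 4761 CPM on FACS plate 1 and 1730 CPM on FACS plate 2, with target plates at 2495, 2482, 1733 and 1944 CPM between them. Hmgcs1, an early enzyme of the pathway, was 514.5 and 99.1 CPM on the FACS plates and 153.4, 181.4, 128.9 and 164.1 CPM on target plates. Of 27 tested genes 0 were called, and the median of -0.44 was 0.28 without FACS plate 1 and -1.21 without FACS plate 2. Trib3, a target of the stress factor Atf4, behaved likewise, at 89.6 and 3.65 CPM on FACS plates and 10.99, 18.4, 6.07 and 8.82 CPM on target plates. These FACS plates were thus not interchangeable, which bears on each difference that rests on 1 of them.

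Genes of T cell receptor signalling gave no call. Of 12 tested, 0 were called in either direction, and the median was -0.01. Cd3e, a chain of the receptor complex, was 235.8, 205.1, 230 and 276.2 CPM on target and 221.05 and 257.4 CPM on FACS plates (-0.02, -0.33 to 0.32). Cd28, a costimulatory receptor, differed by 0.95 and was not called. Interferon-stimulated genes had 9 tested members and 1 call, Irf1, at -1.04 (0.796% of all genes were called lower). Irf1 was -0.61 without FACS plate 2, -0.85 without target plate 4 and 0.23 in leukemia-labelled wells. The 17 heat shock and chaperone genes tested had a median of -0.03 and the 14 apoptosis regulators -0.08.

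Of the genes named by rank and called, 9 higher and 12 lower counting list members, 5 of the higher (Rgs2, Rn4.5s, Klf6, Malat1 and Rnu11) and 3 of the lower (Lrrc17, Snhg20 and Cox6a2) kept a 2-fold difference whichever plate was left out. The others fell short of it without at least 1 of the 6 plates. Raver1 was -1.19 but -0.80 without target plate 3, and Izumo4 was -1.13 but -0.54 without FACS plate 1. Rps15a-ps4 was -1.12 but -0.73 without target plate 3 and -0.997 without FACS plate 1. Mepce was -1.06 but -0.66 without FACS plate 2 and -0.92 without target plate 4. Zc3h13, a component of the RNA methylation complex (chr14:75284373-75344426), was called at 1.04 (0.54 to 1.66) and fell short without any of 3 plates, at 0.85 without target plate 3 and 0.98 without target plate 4 or FACS plate 1. Itsn2, Dnajc1 and Ccnl1 (0.94 to 0.97) and Pfn1, Ucp2, Dnaja3 and Ado (-0.96 to -0.90) had plates that did not overlap and stayed under 2-fold.

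Transcript length ran with the difference across genes. In 7590 genes with an annotated transcript length (GENCODE M21), sorted into 5 groups of equal size, the median target minus FACS difference went from -0.20 for transcripts of 84 to 1706 bases through -0.11, -0.09 and -0.04 to 0.10 for those of 5037 to 123179 bases. Across genes, which are not independent replicates, Spearman's rho was 0.27. In random wells the medians went from -0.11 to 0.10 and in T wells from -0.23 to 0, and the 2 FACS plates differed from each other by -0.04 to -0.07 in every group. The calls did not follow length evenly: from the shortest to the longest group, 16, 0, 9, 9 and 24 genes were called higher and 14, 19, 12, 13 and 1 lower. GC content of the transcript also ran with the difference (Spearman's rho -0.20). In 5 groups by GC the median went from 0.01 at the lowest to -0.16 at the highest. Among the longest transcripts it was 0.16 at the lowest and -0.04 at the highest GC, and among the shortest -0.17 and -0.21. Of the 83 ribosomal protein genes, 72 were in the shortest length group. Each length group was then shifted so that its median equalled that of all genes (-0.08). The ribosomal median was then -0.11, and 40 of 83 lay below both FACS plates (14.7% of all genes).

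**Figure D5:**
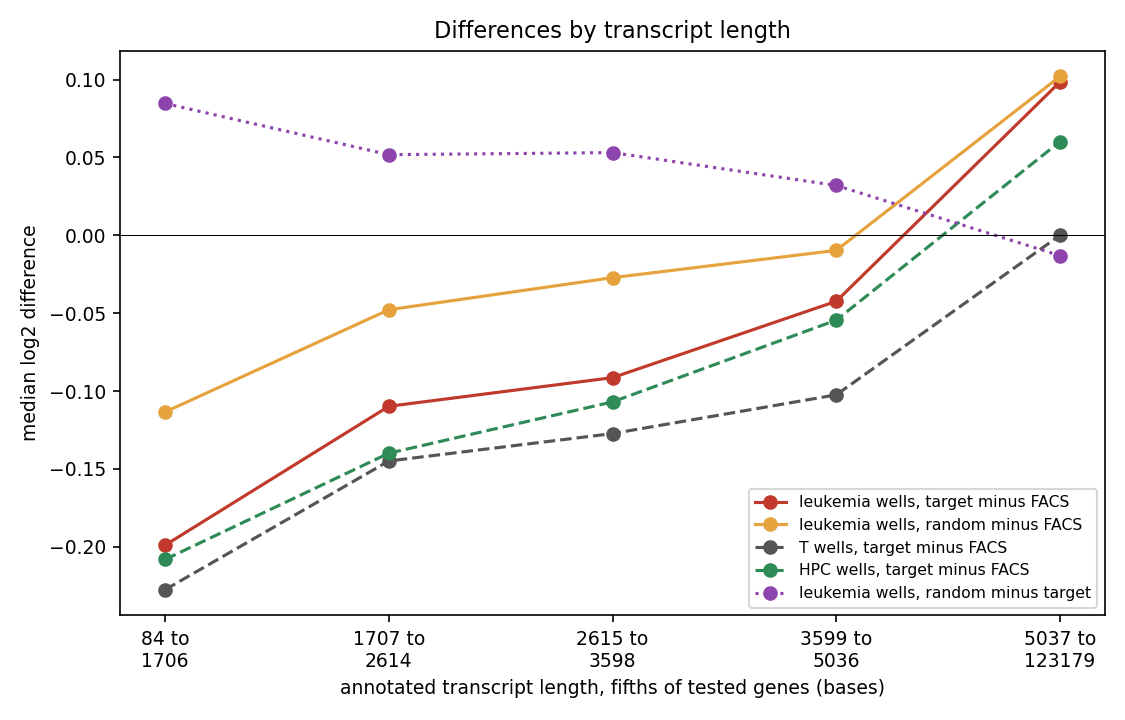
The x axis gives 5 groups of genes by transcript length (bases, shortest to longest) and the y axis the median log2 difference from FACS, for target and random leukemia wells and for the other lines, with random minus target leukemia wells dotted. The target median climbs from -0.20 to 0.10, and random minus target runs from 0.08 to -0.01.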

How the data were processed

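Single mouse cells were lysed in wells, spike-in RNA was added, RNA was fragmented by heat, and cDNA was made with an oligo-dT primer carrying a molecular barcode and with template switching, per the labels' protocols. The authors deposited expected counts for each gene in each well, with no scaling between wells, and 5.35% of positive values were not whole. Per the submitters' processing notes, bcl2fastq and STAR were used with the mm10 genome. The counter, its strand setting, the annotation and all versions are not given in the sources. Gene positions and transcript lengths came from GENCODE M21 (GRCm38) and promoters from RefSeq.

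Wells were grouped by their titles, and leukemia wells were kept by the marker rule. The 1008 time-lapse columns were not used. Counts were summed per plate, scaled to CPM and compared as log2(CPM + 1). Genes needed at least 10 CPM in 1 arm, and rule markers were left out of the comparison. Because each arm is 1 sample, no count model was fitted and there is no p-value. Values were rounded only for thinning, and no doublet caller was run on these wells of 1 cell each. The calculation was tested on simulated data. Of 50 genes raised 2-fold in target plates 28% were called, and of 50 raised 3-fold 100%. Of 7319 unchanged genes 0.355% were called. Changes near 2-fold can therefore be missed. The raised genes all had at least 50 CPM, so the recovery does not apply to scarcer genes, which made up most calls. The simulated spread between plates was that of the target plates for genes above 50 CPM. The spread between the FACS plates was not modelled, so the share of unchanged genes called does not cover it. Intervals are exact (95%, binomial or Poisson) and cover counting error only. The genes named were the 12 with the largest difference in each direction among those with at least 50 CPM and 30 counts in 1 arm and no overlap of plates, without predicted symbols, and members of 31 gene lists that are described. The members and lists were chosen with earlier results of these data known. The tools were matplotlib 3.10.9 for figures, scipy 1.17.1 for intervals, and pandas 2.3.3 with numpy 2.4.6 under python 3.11.15 for the rest. Alternatives covered label, scaling, pseudocount, filter, thinning and each plate left out. The choice of target plates 1 and 2 or 3 and 4 alone, and the correction for transcript length, were added after seeing the data.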

Additional observations from a re-analysis of the deposited data

How the results depend on the processing

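No paired analysis was possible because the arms share no plate and the result comes from no test. The limits lie in the FACS arm: 2 plates, 63 wells and shallower wells than the target arm, so genes under about 50 CPM rest on few counts there. As reported, 0.796% of tested genes were called in each direction. In leukemia-labelled wells alone, a subset of the wells kept by the rule, 2.52% were called higher and 1.88% lower. Medians in that subset were -0.32 (feedback), -0.25 (ERK), -0.44 (host genes) and -0.051 (DNA replication), and Irf1 was at 0.23. Without Rn45s and Rn4.5s in the totals, which moved the median of all genes by 0.09, 1.21% were higher and 0.549% lower (68.8% of calls higher against 50% as reported), with medians of -0.12 for ribosomal proteins and -0.13 for the respiratory chain. Median-of-ratios scaling gave 1.06% and 0.562% (65.3% of calls higher). A pseudocount of 10 gave 0.170% and 0.0783% and a host gene median of -0.51. Thinned wells gave 1.02% and 1.80%, and no filter gave 1.404% and 1.35%. A filter at 50 CPM gave 0.145% and 0.233%, a feedback median of -0.36 and a histone median of -0.19. Leaving out 1 plate at a time gave 0.834% to 2.47% higher and 0.768% to 2.76% lower, the highest of both without FACS plate 2. Without FACS plate 1 they were 1.37% and 2.29%, and without target plate 1 1.01% and 1.20%. With fewer plates the rule of no overlap is easier to meet, so such percentages tend to rise. The ERK median ran from -0.26 to 0.24. Target plates 1 and 2 alone gave medians of 0.85 (cAMP) and -0.16 (DNA replication). Plates 3 and 4 alone gave 1.80% higher and 2.19% lower and medians of -0.31 (feedback), 0.35 (ERK) and -0.34 (histones). With each length group shifted to the median of all genes (-0.08), medians were -0.51 (host genes), -0.11 (ribosomal proteins) and -0.12 (respiratory chain). The cause of these changes was not tested. For 33 named genes over 19 alternatives, 11 values moved beyond the spread between plates and 1 reversed. Leaving out plates cannot shift a value beyond that spread, so those alternatives could not count as moved.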
